A study of Mus musculus with 6 samples.

Results

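The guanylate-binding proteins (GBP) and immunity-related GTPases (IRG) are enzymes that cells make after interferon reaches them, and their transcripts were followed through the cell types of mouse skin. The list names 9 genes of both families: Gbp2, Gbp3, Gbp4, Gbp5, Gbp7, Iigp1, Igtp, Irgm1 and Irgm2. A gene was kept if all 6 deposited tables hold a column for it, with no use of its values. Of the 16158 gene columns, 8 belong to these genes, 5 of them GBP and 3 IRG. Iigp1 was not analysed here.

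The samples are single-cell libraries of skin from 6 mice of the NINJA strain, a line carrying a neoantigen that can be switched on. The mice were 6 to 12 weeks old, 2 in each group. In the NO_AG group the antigen was off, in the AG group it was on, and in the AG_CPI group it was on and the mice received CPI, an agent the labels do not spell out. The skin of all 3 groups had been treated with 4-OH-Tam, so the controls carry that treatment too, and the labels describe P14 CD8 T cells, which bear a transgenic T cell receptor, as recovered from each mouse. The Cre line, the target cells of the antigen, litter and sex are not given in the sources used here. Each library is labelled as 1 mouse, so p-values measure the spread between these libraries.

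Interferon-gamma from T and innate lymphoid cells binds a receptor of Ifngr1 and Ifngr2 chains. The kinases Jak1 and Jak2 then pass the signal to the nucleus, where the transcription factor Irf1 is induced and binds the promoters of GBP and IRG genes. Type I interferons reach many of the same promoters through complexes that hold Irf9. GBP proteins coat the vacuoles and membranes of intracellular pathogens and help inflammatory caspases to sense microbial products. Among IRG proteins, Irgm1, Irgm2 and Igtp (also called Irgm3) sit on the cell's own membranes and restrain effector relatives such as Iigp1.

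The promoters show what these genes share that their choice did not use. RefSeq windows of 250 bases before the transcription start, on build GRCm38.p6, were found for 7 of the 8 genes. Those of a GBP pair and an IRG pair are printed. Another annotated transcript of Gbp2 begins at 142620602, inside its window, and the print stops shortly after that, at 219 bases. No window was found for Gbp4. The capitals mark every match on either strand to GAAANNGAAA, the core of the interferon-stimulated response element bound by Irf factors, and to TTCNNNGAA, the palindrome of the gamma-activated site. The first consists of a pair of GAAA half-sites with 2 bases between, which shows as a pair of TTTC when it lies on the other strand.
Gbp2, chr3:142620413-142620631, plus strand: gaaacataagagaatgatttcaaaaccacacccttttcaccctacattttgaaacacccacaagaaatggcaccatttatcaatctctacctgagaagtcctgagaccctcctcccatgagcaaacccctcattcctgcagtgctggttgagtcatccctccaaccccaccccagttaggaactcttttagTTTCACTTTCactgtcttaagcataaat
Gbp7, chr3:142530086-142530335, plus strand: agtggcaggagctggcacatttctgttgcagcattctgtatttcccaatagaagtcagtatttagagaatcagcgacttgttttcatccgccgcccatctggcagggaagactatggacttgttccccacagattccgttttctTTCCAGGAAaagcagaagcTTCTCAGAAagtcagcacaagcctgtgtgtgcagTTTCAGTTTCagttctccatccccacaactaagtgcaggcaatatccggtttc
Igtp, chr11:58199306-58199555, plus strand: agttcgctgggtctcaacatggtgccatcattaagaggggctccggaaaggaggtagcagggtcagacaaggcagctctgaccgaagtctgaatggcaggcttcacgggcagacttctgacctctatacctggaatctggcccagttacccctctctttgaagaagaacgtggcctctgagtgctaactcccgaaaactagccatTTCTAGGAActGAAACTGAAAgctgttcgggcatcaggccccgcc
Irgm1, chr11:48871421-48871670, minus strand: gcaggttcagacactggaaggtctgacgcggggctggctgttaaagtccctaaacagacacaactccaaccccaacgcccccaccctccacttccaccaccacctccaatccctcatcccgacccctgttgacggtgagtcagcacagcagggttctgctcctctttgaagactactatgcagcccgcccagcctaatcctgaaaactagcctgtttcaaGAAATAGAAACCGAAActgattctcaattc
GAAANNGAAA occurred in a window of 7 of the 7 genes, against 2.98% of 32851 windows and 3.46% of 27025 genes. Its nearest base lay 49 bases before the start in Gbp2, 43 in Gbp7, 24 in Igtp and 14 in Irgm1, where 2 copies overlap. The Gbp2 match lies inside the other annotated Gbp2 transcript, so it is upstream of the RefSeq start but not of that one. TTCNNNGAA occurred in 4 of the 7 genes (Gbp5, Gbp7, Igtp and Irgm2), against 8.13% of all genes. The Gbp2 and Irgm1 windows held none of the latter, which says only that these letters are not there. A match describes the sequence and does not show that a factor binds it.

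Gbp5, Gbp7, Gbp3 and Gbp2 lie on chromosome 3 on the plus strand, from 142493978 to 142638008, and Gbp4 lies on chromosome 5 from 105115767 to 105139586. The 3 IRG genes lie on chromosome 11. The annotated spans of Igtp (58199556 to 58207591) and Irgm2 (58199618 to 58222782) overlap on the same strand, and their promoter windows share a run of 55 bases. The family is one of near copies, so UMIs of Igtp and Irgm2, or of neighbouring GBP genes, may be split between members by the upstream counting. The transcripts themselves were not compared here.

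Levels are given per 10000 UMIs (counted molecules): each cell's UMIs of a gene were set against its total, and a mouse's value for a class is the mean over its cells. The libraries held 1736 to 4972 cells with median depths of 2527 to 4744 UMIs, and after filtering 20464 of 21178 cells were kept. Cell types were rebuilt from marker genes, so all but the CD8 T gate carry the suffix -like, and 9 of 52 clusters stayed unnamed and are called by number. Among these, cluster 6 was led by Trdv4, Cd7, Trat1 and Xcl1, cluster 23 by Retnla, Mgl2, F13a1 and Ccl22, cluster 13 by Vcan, Crabp1 and Rspo3, and cluster 22 by Tagln, Acta2 and Myl9 with keratinocyte transcripts beside them. AG_CPI 1 stands apart. A UMI of Ddx3y, a male gene, was found in 15.9% of its 511 cells outside the T-like clusters and in no cell of the other 5 mice, while 55.4% of its own T-like cells had a UMI of the female transcript Xist, against 2.15% of those outside. The library thus holds cells with male and cells with female transcripts, whose source is not given in the sources used here, and its T cell values and its other values may not come from the same animal. Any pair of libraries shared 0.288% to 0.856% of the smaller library's cell barcodes.

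Without antigen, means were highest in endothelial-like cells for all members but Irgm1. Endothelial-like cells (37 and 12 cells) had the highest mean of the 12 classes with at least 10 cells in both mice for 7 of the 8 genes. Igtp stood at 4.36 and 5.89 UMIs per 10000 there, above the next class in both mice. Gbp7 (3.39 and 1.74), Gbp4 (2.40 and 1.27), Gbp3 (1.04 and 1.45), Gbp5 (0.942 and 0.637) and Irgm2 (1.54 and 1.17) also lay above the next class in both mice. Gbp2 (1.95 and 4.76) overlapped the melanocyte-like class, at 1.25 and 2.25. Irgm1 was the exception, with its highest mean in melanocyte-like cells (0.737 ± 0.0879, SD, n = 2), above 0.502 ± 0.105 in endothelial-like cells. Melanocyte-like cells ranked 2 for Gbp2, Gbp7, Igtp and Irgm2, and 4, 5 and 7 for Gbp3, Gbp5 and Gbp4. Unnamed cluster 14, 43 cells of NO_AG 1 led by the vessel genes Fabp4 and Vwf, is outside this order and had lower levels, with no Igtp UMI, Gbp2 at 0.565, Gbp7 at 0.422, Gbp5 at 0.198, Irgm2 at 0.177 and Irgm1, Gbp3 and Gbp4 at 0.119, 0.0917 and 0.0765.

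With antigen on, endothelial-like and melanocyte-like cells drop out of the order, since AG 1 held 7 of the former and AG 2 held 6 of the latter. The order in AG is thus no comparison with that in NO_AG. The mice with enough of these cells had these levels: 48 endothelial-like cells of AG 2 had Gbp3 at 1.10, Gbp4 at 1.73 and Irgm2 at 1.13, and 19 melanocyte-like cells of AG 1 had Gbp2 at 7.32. Among the 10 remaining classes, monocyte/macrophage-like cells had the highest mean for Gbp2, Gbp3 and Gbp5. This class held 7 and 3 cells in NO_AG, too few to compare, and 161 and 537 in AG. Gbp2 stood at 3.91 and 3.85 there, above cluster 6 at 2.37 and 2.80. Gbp3 and Gbp5 had means of 0.763 ± 0.142 and 0.662 ± 0.193 (SD, n = 2), and neither overlapped the class next in order. Among these 10 classes the remaining members had their highest means elsewhere: Gbp4 (1.59 ± 0.0700), Igtp (2.98 ± 1.46) and Irgm2 in cluster 6, Gbp7 in αβ T-like cells outside the CD8 gate (1.17 ± 0.125), and Irgm1 in cluster 22 (1.10 ± 0.517). Igtp, Irgm2 and Irgm1 overlapped the class below them. In AG_CPI the monocyte/macrophage-like class again came first of 6 for Gbp2 (4.31 ± 0.862), Gbp3 (1.13 ± 0.105) and Gbp5 (0.896 ± 0.00347).

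**Figure D1:**
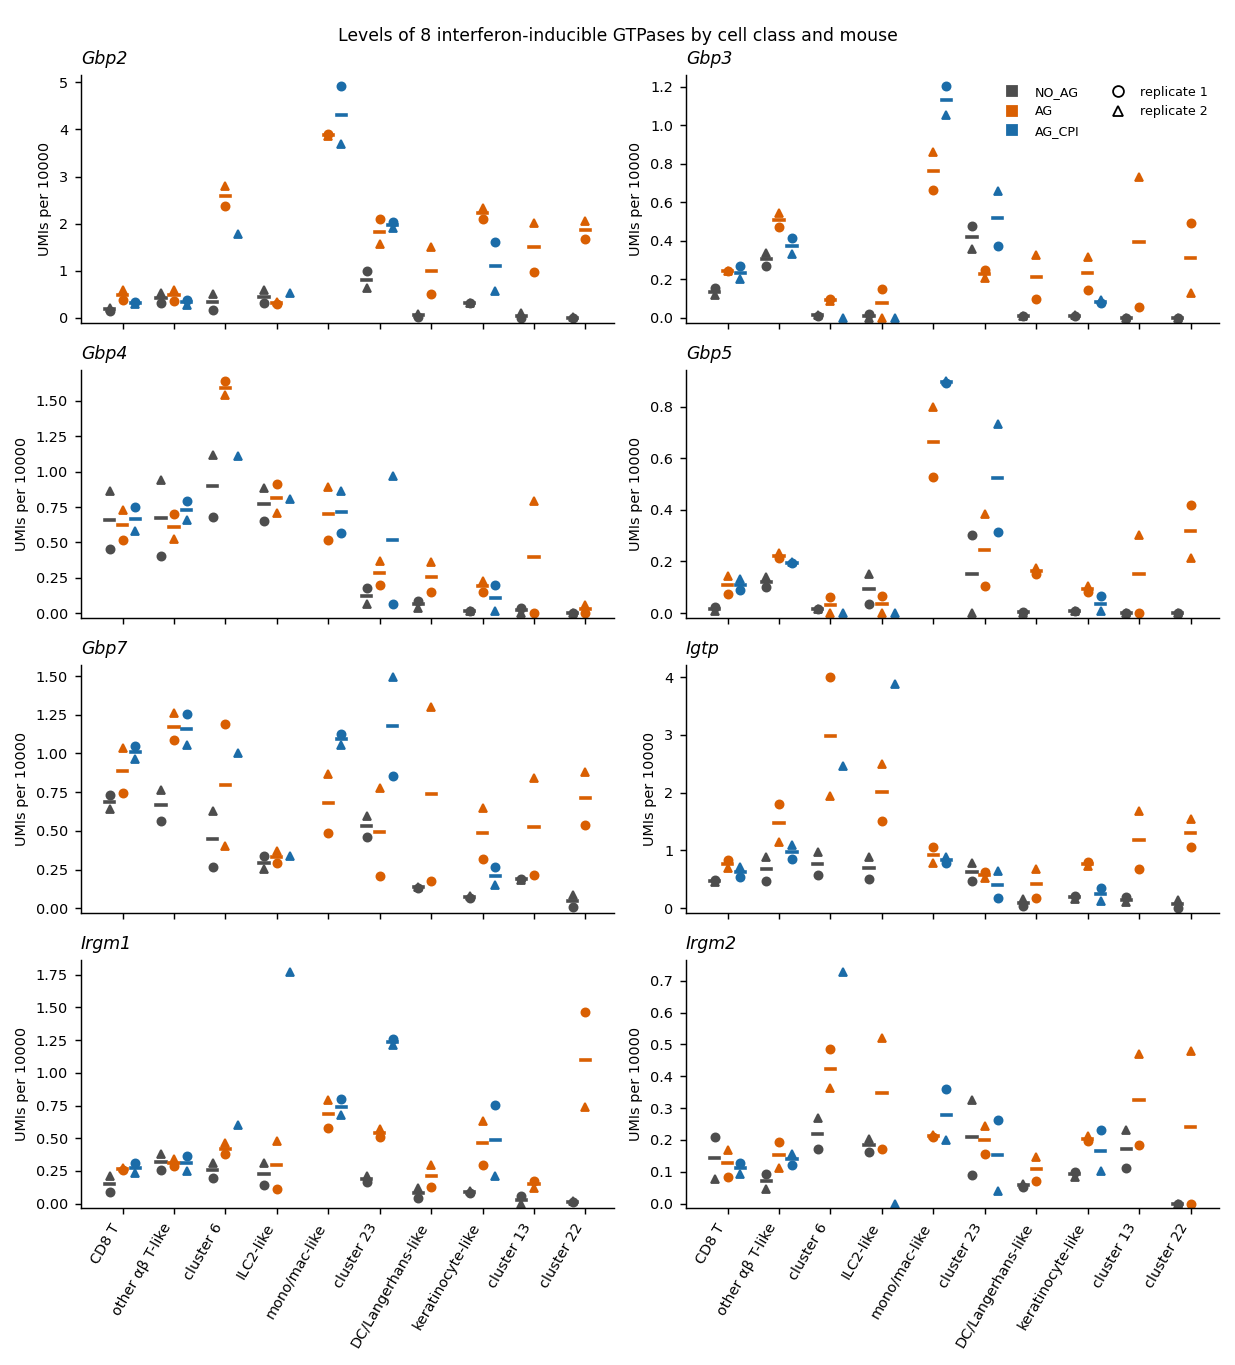
Level of each of the 8 genes (y axis, UMIs per 10000, mean over cells) in 10 cell classes (x axis). Each point is 1 mouse with at least 10 cells of the class, colour gives the group, shape the replicate and the line the mean of 2 mice. Gbp2 sits at 2.11 and 2.34 in keratinocyte-like cells of AG mice and at 0.326 and 0.315 in NO_AG, while in αβ T-like cells outside the CD8 gate its groups overlap.

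The comparison of AG with NO_AG asked what switching the antigen on changed. Over 9 classes, 56 combinations of gene and class passed the filter on low levels. In 39 of them both AG mice lay above both NO_AG mice, in 1 both lay below and in 16 the groups overlapped. Over all genes, 15.8% to 23.5% of a class had both AG mice above and 16.4% to 24.3% both below, 19.7% in cluster 13. The unadjusted p was under 0.05 in 33 of the 56, as for 4.97% to 15.3% of all genes of a class in either direction. Only 6 were called by limma at a Benjamini-Hochberg adjusted p of 0.05 over all genes of the class, all of them higher in AG: Gbp2 in 4 classes and Gbp7 and Igtp in 1. No member was called lower, a call that 0% to 1.14% of all genes of a class received. Genes needed a mean of 0.1 per 10000 in 2 mice, so the filter favours higher values in AG for a gene that passed through mice with antigen alone. In 13 of the 56 both NO_AG mice were under that level, among them 3 of the 6 calls, those of Gbp2 in cluster 13, cluster 22 and dendritic/Langerhans-like cells, whose direction the filter fixed. Of the other 43 combinations, 26 had both AG mice above and 20 an unadjusted p under 0.05. Fitted differences are on the scale log2(scaled level + 0.1), which understates changes of rare transcripts, and beside each stand levels scaled by trimmed means (TMM), which differ slightly from the levels per mouse.

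In CD8 T cells, gated as αβ T-like cells in which Cd8a or Cd8b1 was read but neither Cd4 nor Trdc, Gbp2 rose. It stood at 0.147 and 0.216 UMIs per 10000 in the NO_AG mice and at 0.382 and 0.601 in the AG mice, which do not overlap. The scaled means were 0.174 ± 0.0428 and 0.507 ± 0.162 (SD, n = 2), a log2 difference of 1.13 (SE 0.245, limma adjusted p 0.0343). In this class 1.41% of 7426 genes were called higher, and 22.2% had both AG mice above both NO_AG mice. The call was lost without NO_AG 1 (0.97, adjusted p 0.244) or AG 2 (0.86, 0.332), and also, through the shared spread, without AG_CPI 1 (adjusted p 0.102) or AG_CPI 2 (0.0778). It was also lost with only the AG and NO_AG mice in the fit (0.0990), without the filter (0.166), under deposited scaling (0.0573), with doublets kept (0.0520), under stricter cell filters (0.0715) and after thinning (0.122).

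Of the 8 members tested in CD8 T cells, 6 had both AG mice above both NO_AG mice and their median difference was 0.64, against 0.01 over all genes. Gbp5 is among the 6 and entered through mice with antigen, as both NO_AG mice were under 0.1, and without it the count is 5 of 7 and the median 0.61. Igtp, which sits on the cell's own membranes, stood at 0.494 and 0.448 in NO_AG and 0.838 and 0.701 in AG (0.69, SE 0.204, limma adjusted p 0.135). Irgm1, a regulator of autophagy, stood at 0.0866 and 0.209 against 0.253 and 0.275 (0.67, adjusted p 0.279). Gbp7 differed by 0.41 (adjusted p 0.406) and Gbp3 by 0.61 (0.258). Gbp5, a partner of inflammasome assembly, was near the limit of detection in NO_AG: 2 UMIs in all against 42 in AG. Its ratio of UMIs was 7.29 with an exact 95% counting interval of 1.90 to 62.1, and the limma difference of 0.88 (adjusted p 0.134), which depends on the pseudocount, did not pass. Gbp4 and Irgm2 overlapped between the groups. CD8 T cells of the 2 groups came largely from different clusters, cluster 4 giving 79.2% and 79.8% in NO_AG and 52.5% and 22% in AG. The summed level of the 15 monocyte/macrophage markers in CD8 T cells was 1.05 and 1.22 in NO_AG and 2.31 and 4.96 in AG, with Fcgr1 and Mrc1 at 0 in all mice. Its part in the Gbp2 result was not tested.

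In αβ T-like cells outside the CD8 gate Igtp and Gbp7 were called, and the difference from CD8 T cells was not tested. Igtp rose from 0.473 and 0.883 UMIs per 10000 in the NO_AG mice to 1.81 and 1.15 in the AG mice, a log2 difference of 1.10 (SE 0.257, limma adjusted p 0.0247). Gbp7, a neighbour of Gbp5 on chromosome 3, rose from 0.567 and 0.767 to 1.08 and 1.26, by 0.80 (SE 0.206, adjusted p 0.0465). Neither gene's groups overlapped. For this class 2.02% of 7688 genes were called higher and 22.6% had both AG mice above both NO_AG mice. Gbp2 did not separate the groups here (0.305 and 0.517 against 0.357 and 0.593), nor did Gbp4 or Irgm1. Gbp3 (0.65, adjusted p 0.156), Gbp5 (0.59, 0.238) and Irgm2 (0.59, 0.328) lay higher in both AG mice and did not pass. Irgm2 was under 0.1 in both NO_AG mice, so its entry through mice with antigen favours this direction. The class came from different clusters in the 2 groups: cluster 4 gave 69.5% and 66.5% in NO_AG and 24.6% and 20.5% in AG, and cluster 24, led by Foxp3 and other regulatory T cell genes, 14.1% and 19.0% against 41.4% and 30.6%. The part of this shift was not tested. Both calls were lost without the filter (adjusted p 0.173 for Igtp and 0.137 for Gbp7), as a ratio of sums (0.0713 and 0.0709), under stricter cell filters (0.226 and 0.194), with Trdc-positive cells let into the gate (0.0767 and 0.379) and after thinning (0.104 and 0.306). The Gbp7 call was also lost at a pseudocount of 0.02 (0.0542), under deposited scaling (0.0692), under another naming rule (0.0509) and with the replicate number in the fit. The Igtp call was lost without NO_AG 1 (0.73, adjusted p 0.343) or AG 1 (0.81, 0.186). The Gbp7 call was lost without any 1 of the 4 mice compared, with adjusted p between 0.0566 and 0.348.

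In keratinocyte-like cells no member was called, and the 7 that passed the filter had both AG mice above both NO_AG mice. Of the 7, Gbp3, Gbp4, Gbp7, Irgm1 and Irgm2 were under 0.1 in both NO_AG mice and passed through mice with antigen, which favours this direction. Gbp2 had 0.326 and 0.315 UMIs per 10000 in NO_AG and 2.11 and 2.34 in AG. The groups lay far apart, and the limma test over 8363 genes gave a log2 difference of 2.53 (SE 0.419) with an adjusted p of 0.121. Unadjusted, the p of the 7 members was under 0.05, as for 6.1% of all genes. In this class 0.227% of genes were called higher, 306 had an unadjusted p under 0.05 in that direction, 0.0120% were called lower, and 22.3% had both AG mice above both NO_AG mice.

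The spread in that fit is shared with the AG_CPI mice, which differ from each other in keratinocyte-like cells. Without AG_CPI 1, Gbp2 passed (2.54, limma adjusted p 0.00737), and with only the AG and NO_AG mice it also passed (adjusted p 0.00749). Igtp stood at 0.212 and 0.167 in NO_AG and 0.798 and 0.728 in AG (1.64, adjusted p 0.198), and passed without AG_CPI 1 (adjusted p 0.0359). Gbp7 stood at 0.0686 and 0.0790 against 0.319 and 0.651 (1.74, adjusted p 0.151). Irgm1 stood at 0.0780 and 0.0933 against 0.296 and 0.631 (1.58, adjusted p 0.591). The rarer GBP genes were close to 0 in NO_AG. Gbp3 stood at 0.0103 and 0.0128 against 0.144 and 0.319 (1.54, adjusted p 0.132), and Gbp4 at 0.0119 and 0.0142 against 0.151 and 0.228 (1.37, 0.591). Irgm2 differed least, at 0.0997 and 0.0835 against 0.197 and 0.211 (0.71, adjusted p 0.721). Gbp5 missed the filter with 0.00627 and 0.00661 against 0.0817 and 0.104.

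AG 2 also brought its own keratinocyte clusters, 7 of which drew 92.7% to 100% of their cells from it. Without them Gbp2 gave 2.54 (limma adjusted p 0.0687). The summed level of 12 αβ T markers in keratinocyte-like cells was 0.730 and 1.33 in NO_AG and 1.17 and 4.84 in AG, and their part was not tested. The 15 monocyte/macrophage markers summed to 59.1 and 48.0 in NO_AG and to 56.8 and 37.6 in AG, and their part was not tested either.

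**Figure D2:**
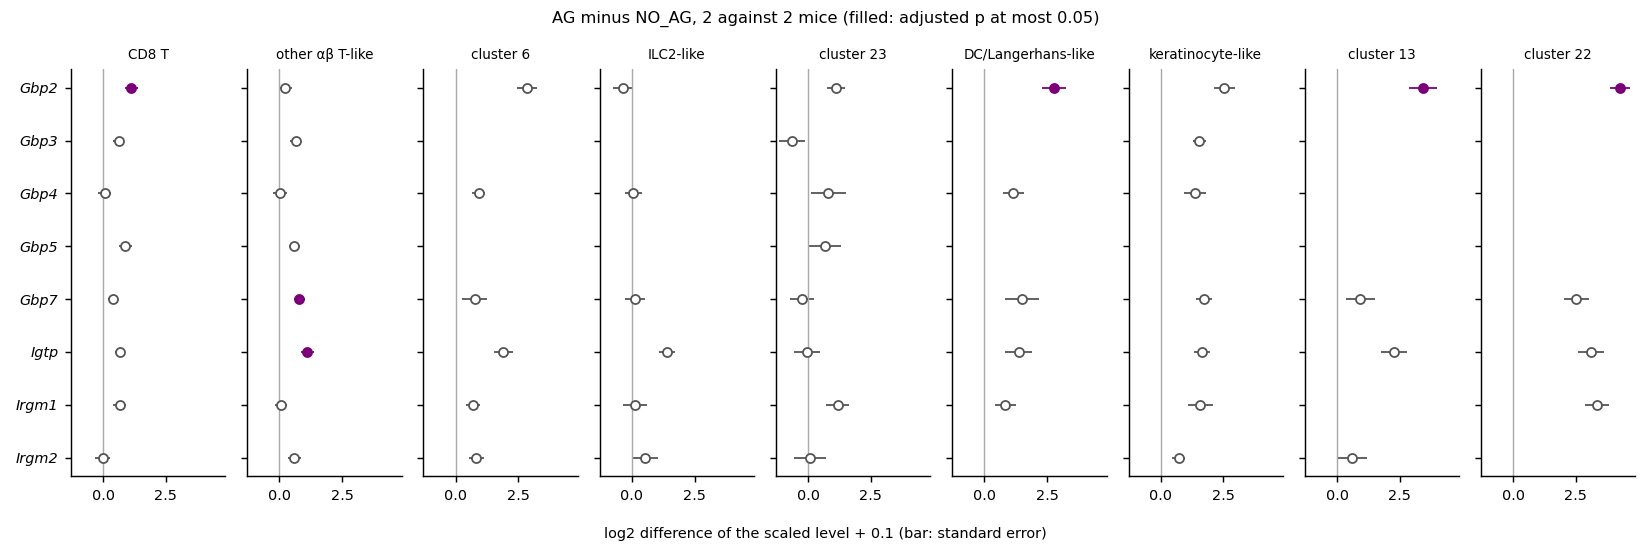
Difference between AG and NO_AG for each member (rows) in the 9 classes that allowed a comparison (panels). The x axis is the log2 difference of the scaled level plus 0.1, bars are standard errors from limma, and filled points passed an adjusted p of 0.05. Filled points are Gbp2 in CD8 T cells, Gbp7 and Igtp in αβ T-like cells outside the CD8 gate, and Gbp2 in cluster 13, cluster 22 and dendritic/Langerhans-like cells, where the filter fixed the direction, while the open keratinocyte-like points all lie above 0.

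The keratinocyte subsets, named from the same markers and described without a test, show where Gbp2 was read. In interfollicular basal cells it stood at 0.677 and 0.581 in NO_AG and at 5.75 and 5.78 in AG (223 and 68 cells). These groups of basal cells differ in their clusters: cycling cluster 15 gave 22.2% and 20.1% of them in NO_AG and 78.0% and 95.6% in AG, and cluster 1, which does not cycle, gave the others. Within cluster 15 Gbp2 stood at 0.678 and 1.02 in NO_AG (154 and 88 cells) and at 7.20 and 5.49 in AG (174 and 65 cells). Within cluster 1 it stood at 0.676 and 0.471 in NO_AG and at 0.604 in 49 cells of AG 1, which lies between them, while AG 2 had 3 cells. The clusters were made without the members and the genes of the pathway lists. The split was chosen after seeing the data, so the values are a description. Upper follicle and sebaceous cells reached 1.63 and 1.02 in AG from 0.136 and 0.165. Bulge and germ cells of the follicle reached 0.582 and 1.87 from 0.155 and 0.0588. Cluster 2 gave 415 of 418 and 405 of 417 of these cells in NO_AG and 172 of 180 in AG 1. In AG 2 it gave 103 of 697, while cluster 33, 92.7% of it from that mouse, gave 505. The part of this shift was not tested. Basal cells were thus the highest of these 3 subsets in both groups, and all 3 lay higher in both AG mice. Suprabasal cells stood at 0.290 and 0.253 in NO_AG and at 1.62 and 5.77 in AG, the last value resting on 34 cells of AG 2. Cells with stress keratins, 635 of them in AG 2 and 3 in AG 1, had 2.97 in AG 2. Within each AG mouse Igtp, Gbp7 and Irgm1 were likewise highest of the 3 subsets in basal cells, at 1.70 and 0.894, 0.658 and 0.918, and 0.550 and 1.11.

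**Figure D3:**
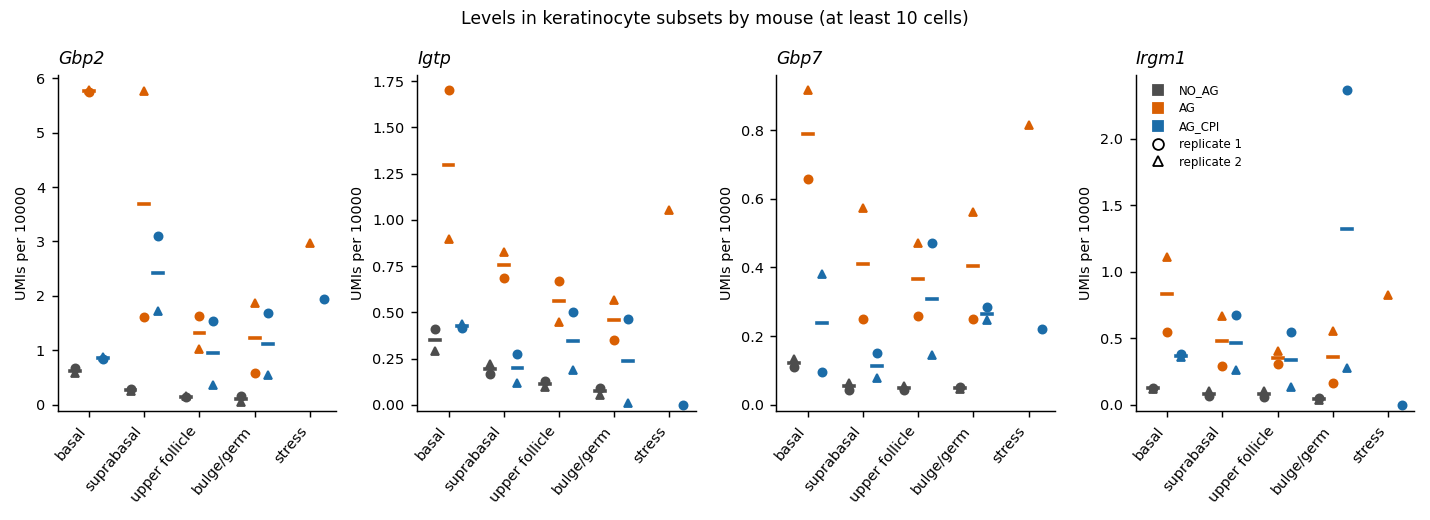
Level of Gbp2, Igtp, Gbp7 and Irgm1 (y axes, UMIs per 10000) in 5 keratinocyte subsets (x axis), with points for mice with at least 10 cells and lines for means of 2 mice. In basal cells the AG mice sit at 5.75 and 5.78 for Gbp2, apart from NO_AG (0.677 and 0.581) and from AG_CPI (0.848 and 0.872, from 26 and 19 cells). Of the basal cells, cycling cluster 15 gave 22.2% and 20.1% in NO_AG and 78.0% and 95.6% in AG.

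Among other non-lymphoid cells, limma also called Gbp2 in 3 classes, in each of which both NO_AG mice were under 0.1. Gbp2 entered the test there through the AG mice alone and had to be higher in them, so these 3 calls are no support for the direction and the values are a description. In dendritic/Langerhans-like cells it stood at 0.0278 and 0.0801 UMIs per 10000 in NO_AG and at 0.514 and 1.50 in AG, a log2 difference of 2.78 (SE 0.487, limma adjusted p 0.0442). A UMI was found in 3 of 221 and 5 of 135 cells of the NO_AG mice and in 9 of 35 and 17 of 33 cells of the AG mice. Here 0.565% of 7260 genes were called higher, and 23.5% had both AG mice above. Gbp4 (1.16), Gbp7 (1.50), Igtp (1.36) and Irgm1 (0.84) also lay higher in both AG mice, with adjusted p from 0.246 to 0.398, and Gbp4 too entered through the AG mice. The AG cells were deeper, with medians of 9011 and 7893 UMIs against 4164 and 5423. The monocyte/macrophage markers summed to 15.7 and 13.2 in NO_AG and to 13.6 and 40.6 in AG, with Fcgr1, Ccr2 and Ms4a7 at 0 in all 4 mice. Their part in the Gbp2 result was not tested. The Gbp2 call was lost without NO_AG 1 (2.49, adjusted p 0.0613), when doublets were kept (1.91, 0.262), at pseudocounts of 0.5 (0.0763) and 0.02 (0.0547), without the filter (0.205), under deposited scaling (0.0514), as a ratio of sums (0.0651) and after thinning (0.282).

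In clusters 13 and 22 Gbp2 rested on few cells. Cluster 22 had no Gbp2 UMI in 85 cells of NO_AG 1, which bounds the share of cells in which a UMI is captured at 3.53%, not the share that transcribes the gene, and 1 UMI in 78 cells of NO_AG 2. In AG, 8 UMIs came from 1 of 15 cells and 62 from 4 of 27, so single cells carry the level. The UMI ratio was 364 with an exact 95% counting interval of 63.3 to 14590, and the limma difference was 4.25 (SE 0.401, adjusted p 0.0353), which depends on the pseudocount. Cluster 13 had 0 and 1 UMI in NO_AG, against 18 in 5 of 42 cells and 14 in 4 of 21 in AG. Its ratio was 59.4 (9.92 to 2419) and its difference 3.43 (SE 0.558, adjusted p 0.0410). The cluster 13 call was lost at a pseudocount of 0.02 (adjusted p 0.256), without the filter (0.103), under stricter cell filters (0.135), at Leiden resolution 0.5 (1.63, 0.502) and after thinning (0.739). That of cluster 22 was lost at a pseudocount of 0.02 (0.170), without the filter (0.319), as a ratio of sums (0.125) and after thinning (0.243). These intervals cover counting error alone. In cluster 22, 0.0496% of 8069 genes were called higher, and in cluster 13 0.0872% of 8029, beside 0.0374% called lower. Both AG mice lay above both NO_AG mice for 16.6% and 16.0% of genes.

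The other members of cluster 22 did not pass, and Irgm1 and Gbp7 entered the test through the AG mice. The values were Irgm1 with 2 UMIs in NO_AG and 20 in AG (ratio 52.0, interval 12.6 to 459, limma adjusted p 0.208), Igtp (3.1, 0.273) and Gbp7 (2.52, 0.565). In cluster 13 Igtp stood at 0.196 and 0.103 against 0.688 and 1.68 (2.28, adjusted p 0.176), and Gbp7 gave 0.94 (0.862). The αβ T markers in cluster 22 summed to 1.74 and 0.340 in NO_AG and to 2.46 and 5.99 in AG, and their part was not tested.

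Cluster 6, cluster 23 and ILC2-like cells gave no calls, although 4 of 6, 2 of 8 and 1 of 6 members had an unadjusted p under 0.05, as had 6.93%, 7.04% and 4.97% of all genes. In cluster 6, led by a delta-chain segment of the T cell receptor, Gbp2 stood at 0.167 and 0.516 in NO_AG and at 2.37 and 2.80 in AG, a limma difference of 2.85 with an adjusted p of 0.555. Igtp stood there at 0.574 and 0.966 against 4.01 and 1.94 (1.91, adjusted p 0.703). No gene of 7833 was called higher in that class, in which 256 had an unadjusted p under 0.05 in that direction and 19.9% had both AG mice above. Gbp4 (0.92), Irgm1 (0.68) and Irgm2 (0.83) also lay higher in both AG mice. The ILC2-like class is cluster 20, led by Il13 but also by Ccr6 and Il17a, genes of γδ T cells that make interleukin-17, so its leading genes are mixed. There Igtp alone of the members tested separated the groups, at 0.509 and 0.886 against 1.51 and 2.50 (1.39, SE 0.311, adjusted p 0.906), where 15.8% of 7303 genes had both AG mice above and 138 had an unadjusted p under 0.05. Gbp2 overlapped there (0.312 and 0.591 against 0.304 and 0.334).

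Cluster 23 held the 1 member that lay lower in both AG mice. Gbp3 stood at 0.478 and 0.358 in NO_AG and 0.251 and 0.205 in AG (-0.63, limma adjusted p 0.854), a separation that 16.4% of its genes showed in that direction, and after thinning of cells to 1500 UMIs its sign turned (0.09). Gbp2 (1.12, adjusted p 0.406), Gbp4 (0.81, 0.867) and Irgm1 (1.17, 0.582) lay higher in both AG mice, as did 21.1% of genes, where 0.200% of all were called higher and 0.0267% lower. For Gbp4, 3 UMIs in NO_AG stood against 28 in AG (ratio 3.36, interval 1.04 to 17.3).

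The difference between keratinocyte-like and CD8 T cells was tested within libraries. AG_CPI 1 is in this fit, and its T cells and other cells may not come from the same animal. For AG against NO_AG, the change in keratinocyte-like cells exceeded that in CD8 T cells for the 7 members tested, by 0.73 to 1.40, and none passed. The 5 members that entered the keratinocyte test through mice with antigen were favoured to show a change there. Gbp7 came nearest (1.33, SE 0.271, limma adjusted p 0.127), followed by Gbp2 (1.40, SE 0.391, 0.351). Over 6502 genes, 0.108% were called with a larger change in keratinocyte-like cells. The unadjusted p was under 0.05 for 6 of the 7 members and for 320 of all genes in that direction.

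Thinning every cell to 1500 UMIs separated the number of cells with a transcript from depth. In CD8 T cells the share with a Gbp2 UMI was 1.60% and 3.15% in NO_AG, 4.75% and 6.83% in AG, and AG_CPI mice had 4.13% and 4.61%. The share in keratinocyte-like cells was 2.58% and 3.23% in NO_AG (Wilson 95% intervals 2.07 to 3.22 and 2.60 to 4.01), 15.2% and 23.2% in AG (13.3 to 17.4 and 21.6 to 25.0), and 16.8% and 7.45% in AG_CPI. In monocyte/macrophage-like cells it was 42.9% and 34.8% in AG and 44.0% and 36.6% in AG_CPI. Without thinning, the keratinocyte-like shares were 5.33% and 7.73%, 29.6% and 36.7%, and 25.1% and 12.6%. No class is known to lack Gbp2, and a low one was cluster 22 of NO_AG, with 0 of 85 and 1 of 78 cells before thinning at median depths of 7970 and 8315 UMIs, against 2304 to 2735 in the CD8 T cells of NO_AG and AG.

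The effect of CPI on top of antigen was read from AG_CPI against AG. No member was called by limma in any of 5 classes and 39 tests, and 8 had an unadjusted p under 0.05, as had 4.28% to 7.8% of all genes. Of the 39, 9 had both AG_CPI mice below both AG mice, 6 had both above and 24 overlapped, where 15.7% to 19.2% and 15.4% to 19.3% of all genes had both mice below or above. The lower values stood in keratinocyte-like and T cells, and the higher ones in monocyte/macrophage-like cells and cluster 23. AG and AG_CPI share the AG mice with the comparison above, so the pair of comparisons is not independent.

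In keratinocyte-like cells, Igtp stood at 0.798 and 0.728 in AG and at 0.349 and 0.131 in AG_CPI, apart in both mice. The log2 difference was -1.41 (SE 0.324, limma adjusted p 0.617). Gbp2 stood at 1.62 and 0.571 in AG_CPI, below both AG mice (-1.10, SE 0.419, adjusted p 0.643), as were Gbp3 (-0.80) and Gbp7 (-0.88). Gbp4, Irgm1 and Irgm2 overlapped. No gene of 8363 was called in this class in either direction, 318 had an unadjusted p under 0.05 for lower values in AG_CPI, and 15.7% had both AG_CPI mice below. AG_CPI 1 held 191 keratinocyte-like cells and AG_CPI 2 held 470. Without AG_CPI 1 the differences were -1.93 for Igtp, -1.82 for Gbp2, -1.2 for Gbp7 and -0.75 for Gbp3, and none was called.

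Among T cells, Gbp2 in CD8 T cells stood at 0.326 and 0.297 in AG_CPI, below both AG mice (-0.53, limma adjusted p 0.948). Igtp stood at 0.547 and 0.712, of which the second overlaps AG 2 before scaling and lies below it after (-0.29, adjusted p 0.996). In αβ T-like cells outside the gate, Igtp at 0.845 and 1.09 lay below both AG mice (-0.52, adjusted p 0.682), as did Gbp3 (-0.34, 0.816) and Gbp5 (-0.10, 0.982). The sign of Gbp3 turned with Trdc-positive cells let into the gate (0.21), and Gbp5 gave 0.00 to 0.31 in 4 settings. Of the genes tested, 19.2% in CD8 T cells and 18.5% in the other αβ T-like cells had both AG_CPI mice below, and 0.0808% and 0.143% were called lower, with an unadjusted p under 0.05 for 175 and 289 genes in that direction. Calls higher made up 0.0539% and 0.416%. These classes too came from different clusters, cluster 36 giving 8.31% and 9.96% of CD8 T cells in AG and 46.4% and 42.0% in AG_CPI, and 4.67% and 4.79% against 42.8% and 40.4% of the other αβ T-like cells. Its part was not tested. Without AG_CPI 1, Gbp2 in CD8 T cells gave -0.59 and Igtp -0.13, and in the other αβ T-like cells Igtp gave -0.38.

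In monocyte/macrophage-like cells 3 GBP genes lay higher in both AG_CPI mice. Gbp7 stood at 0.488 and 0.867 in AG and 1.13 and 1.05 in AG_CPI (0.66, SE 0.242, limma adjusted p 0.507). Gbp3 stood at 0.662 and 0.863 against 1.20 and 1.05 (0.52, adjusted p 0.587) and Gbp5 at 0.525 and 0.799 against 0.893 and 0.898 (0.41, 0.779). Of 6638 genes, 17.9% had both AG_CPI mice above, 0.301% were called higher and 277 had an unadjusted p under 0.05 in that direction. Gbp7 passed without AG 2 (0.98, adjusted p 0.00253), where the lone AG mouse is assumed to vary like the others, and gave 0.62 without AG_CPI 1. In cluster 23, Gbp3 (0.88), Gbp7 (1.27) and Irgm1 (1.08) lay higher in both AG_CPI mice with adjusted p of 0.999, where 16.1% of genes did, 0.0134% were called higher and 0.0802% lower. Without AG_CPI 1 these were 1.21, 1.62 and 1.04, and after thinning the sign of Gbp3 turned (-0.24).

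**Figure D4:**
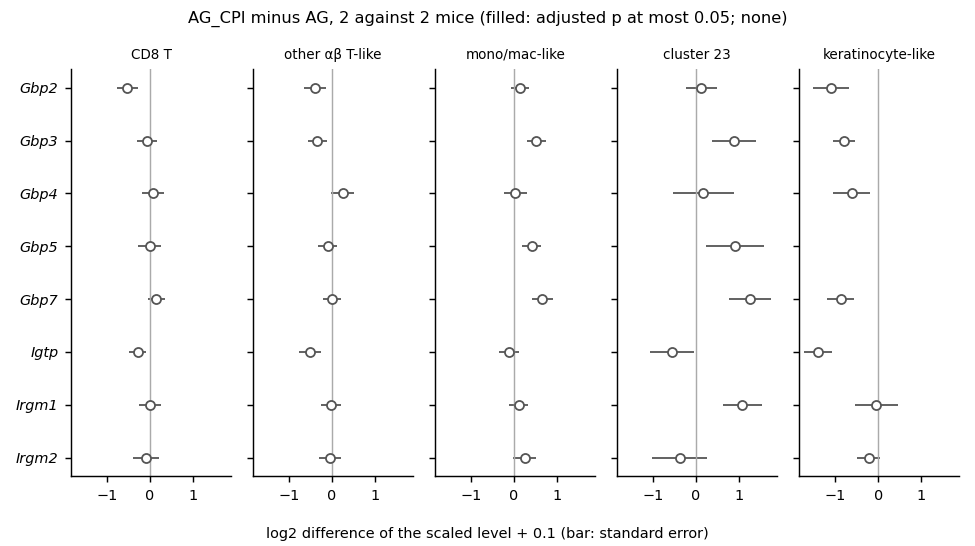
Difference between AG_CPI and AG for each member (rows) in the 5 classes with both mice of both groups (panels). The x axis is the log2 difference of the scaled level plus 0.1 and bars are limma standard errors. No point is filled, since none passed; Igtp in keratinocyte-like cells lies lowest, at -1.41.

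AG_CPI against NO_AG gave 2 calls among 31 tests in 4 classes, and 21 tests had both AG_CPI mice above, as had 20% to 26.2% of all genes. Some of the 31 were under 0.1 in both NO_AG mice and entered through mice with antigen, which favours this direction. They are Gbp5 in CD8 T cells, Irgm2 in the other αβ T-like cells, and Gbp3, Gbp4, Gbp7, Irgm1 and Irgm2 in keratinocyte-like cells. Neither call is among them. Gbp7 rose in αβ T-like cells outside the CD8 gate, from 0.567 and 0.767 UMIs per 10000 to 1.26 and 1.05 (0.80, SE 0.206, limma adjusted p 0.0344), where 2.69% of genes were called higher. Irgm1 rose in cluster 23, from 0.163 and 0.213 (2 and 3 UMIs) to 1.26 and 1.22 (10 and 17 UMIs), a difference of 2.25 (SE 0.455, adjusted p 0.0169). In that class 0.374% of genes were called higher and 20% had both AG_CPI mice above. Both calls were lost without AG_CPI 1, at 0.66 (adjusted p 0.313) and 2.23 (0.255), and each was also lost without any 1 of the other 3 mice compared, without the filter (0.0946 and 0.0927), as a ratio of sums (0.0692 and 0.115) and after thinning (0.221 and 0.659). The Gbp7 call was further lost under deposited scaling (0.0617), stricter cell filters (0.153) and with Trdc-positive cells let into the gate (0.209). The monocyte/macrophage markers in cluster 23 summed to 134 and 288 in NO_AG and to 65.5 and 96.9 in AG_CPI. The part of this difference in the result was not tested.

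The rest of the pathway was read from lists of genes by role. Among ligands, Ifng was the 1 gene of 6 with a column that passed the filter in T cells and keratinocyte-like cells. It rose in αβ T-like cells outside the gate, from 1.70 ± 0.352 to 3.40 ± 0.930 UMIs per 10000 (SD, n = 2; 0.95, limma adjusted p 0.0151). CD8 T cells had Ifng at 3.17 ± 0.354, 5.53 ± 1.90 and 3.82 ± 0.0184 in NO_AG, AG and AG_CPI, and AG against NO_AG missed the threshold (0.74, adjusted p 0.104). In keratinocyte-like cells Ifng was at 0.00584 ± 0.00259 and 0.152 ± 0.184.

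Of the receptors, Ifngr1 rose in αβ T-like cells outside the gate (1.08, limma adjusted p 0.00299) and in dendritic/Langerhans-like cells, from 0.131 ± 0.0160 to 1.20 ± 0.325 (2.47, 0.0132). In keratinocyte-like cells it lay lower in both AG mice, at 0.388 ± 0.0461 against 0.868 ± 0.239 (-0.97, adjusted p 0.321), and Ifngr2 differed by -0.23 (0.970). Ifngr2 was too low to test in the T classes. CD8 T cells had Ifngr1 at 1.15 ± 0.474 and 2.19 ± 0.434 (0.91, adjusted p 0.0864).

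Some signalling genes passed. CD8 T cells had Irf7 (1.17, limma adjusted p 0.0286) and Irf8 (1.46, 0.00731) called higher in AG. The kinase Jak1 (-0.12, adjusted p 0.792) and Irf1 (0.01, 0.995) overlapped, as did Jak2. In keratinocyte-like cells Irf7, the factor that amplifies type I interferon, was the 1 of 10 called (2.07, adjusted p 0.0168). There Irf1 lay higher in both AG mice (0.37, 0.927), and Jak1 and Jak2 overlapped. In αβ T-like cells outside the gate Irf8 was the 1 of 12 called (1.47, adjusted p 0.00406). Among inhibitors, Usp18, which removes Isg15 from proteins, was called in CD8 T cells (1 of 8; 1.54, adjusted p 0.0103), where both NO_AG mice were under 0.1 and its entry favours this direction. Socs1, a brake on the Jak kinases, overlapped in CD8 T cells and lay higher in both AG mice in keratinocyte-like cells (0.59, adjusted p 0.700).

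The genes best known as targets of type I interferon gave most calls among the lists. In CD8 T cells 5 of 8 were called higher in AG: Ifit1 (2.03), Ifit3 (2.04), Rtp4 (1.59), Isg15 (1.48) and the GTPase Mx1 (1.21), with limma adjusted p from 0.00314 to 0.0455, where 1.41% of all genes were called higher. In keratinocyte-like cells it was 5 of 6, Isg15, from 0.295 ± 0.0645 to 5.24 ± 1.42 (3.74, adjusted p 0.00429), Oasl2 (3.08), Rtp4 (2.84), Ifit1 (2.81) and Xaf1 (2.29), where 0.227% of all genes were called higher. Of interferon-gamma chemokine and presentation genes, Cxcl9 was called in keratinocyte-like cells, from 0.401 ± 0.0243 to 3.89 ± 0.127 (2.99, adjusted p 0.0311; 1 of 9, with both AG mice above for 9 of 9, as for 22.3% of all genes), and none of 10 in CD8 T cells. Tap1 (1.92) and Psmb8 (1.44), of antigen processing, were called in dendritic/Langerhans-like cells, both with adjusted p 0.0126, Cxcl9 (5.80) and Cxcl10 (4.46) in cluster 22, where Isg15 was called too (4.40), and B2m (2.11) in cluster 13. Isg15 was also called in cluster 23 (2.32), and Ifit1 (1.05) and Ifit3 (1.92) in the other αβ T-like cells. As for the members, some of these genes were under 0.1 in both NO_AG mice and entered through mice with antigen, which favours the direction called and fixed it in cluster 22. They are Ifit1, Ifit3 and Mx1 in CD8 T cells, Ifit1 and Oasl2 in keratinocyte-like cells, Ifit3 in the other αβ T-like cells and Cxcl9 and Cxcl10 in cluster 22.

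The remaining partners gave few calls. The inflammasome and pyroptosis genes, with which GBP proteins act, had none called among the 5 tested in CD8 T and the 5 in keratinocyte-like cells. The ubiquitin-like conjugation genes, whose products help GTPases onto vacuoles, had none of 12 and none of 13, with medians of 0.12 and 0.06. Of the other GBP and IRG genes, 8 of 17 had a column. Gbp6 alone among them was called, in CD8 T cells for AG_CPI against NO_AG (1.13, limma adjusted p 0.0359), having entered through mice with antigen. For AG_CPI against AG the calls among list genes were Isg15, from 15.1 ± 1.63 to 6.91 ± 1.93 (-1.14, adjusted p 0.0263), and Ifit1 (-1.26, 0.0436), both lower in monocyte/macrophage-like cells of AG_CPI mice. For AG_CPI against NO_AG, further calls, all higher, were Irf8 (1.09) and Stat3 (0.79) in CD8 T cells, Ifng (1.24), Ifngr1 (0.78), Irf8 (1.16), B2m (0.53) and Ifit3 (1.89) in the other αβ T-like cells, Oasl2 (2.04) and Rtp4 (2.03) in keratinocyte-like cells, and Psmb9 (1.25) and Isg15 (1.89) in cluster 23. Of these, Ifit3 and Oasl2 were under 0.1 in both NO_AG mice.

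**Figure D5:**
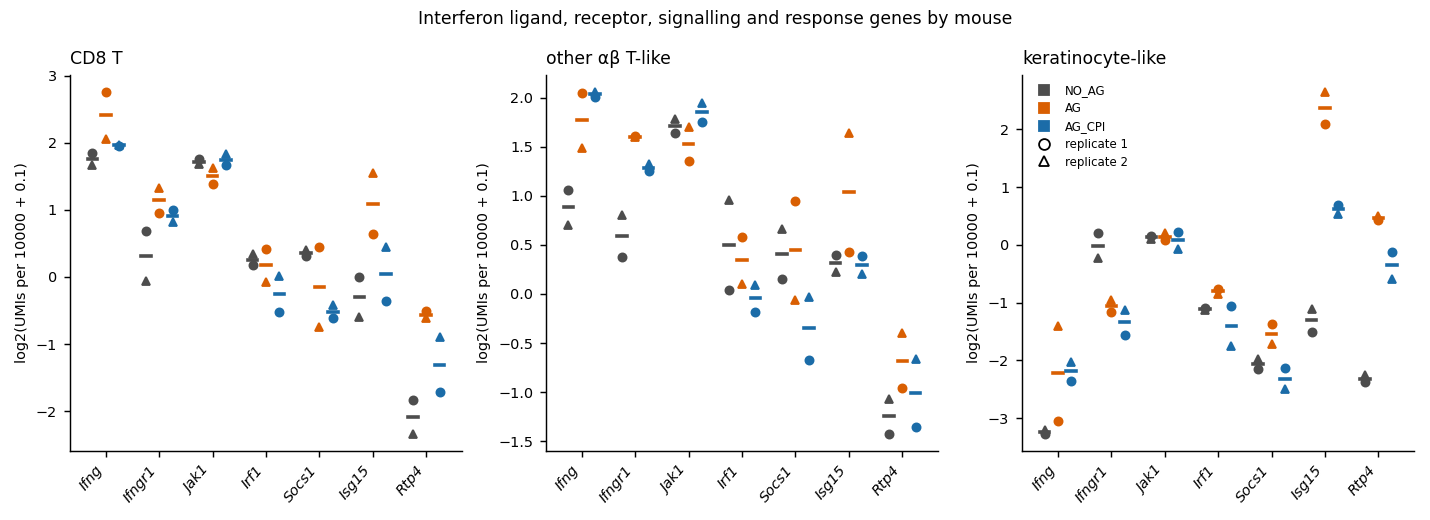
Level of 7 interferon pathway genes (x axis) in CD8 T, other αβ T-like and keratinocyte-like cells (panels), as log2(UMIs per 10000 + 0.1) on the y axis. Points are mice, colour gives the group, shape the replicate and lines the mean of 2 mice. Isg15 and Rtp4 of keratinocyte-like cells show AG above NO_AG with AG_CPI between, and Jak1 in those cells overlaps between the groups.

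The genes whose pattern lay closest to the members' mean log2 level were sought over 59 profiles of a class in a mouse, each with at least 20 cells, among 8560 genes. Among the 8 closest were Zbp1 (r = 0.809), Parp14 (0.808), Psmb10 (0.786), Rnf213 (0.784), Samhd1 (0.763), Isg15 (0.759) and Xaf1 (0.749). Between members, r ranged from 0.363 for Gbp2 with Gbp4 to 0.819 for Gbp3 with Gbp5. The profiles share mice, libraries and depth, so these values describe likeness only.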

How the data were processed

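Single-cell RNA was measured in skin cells with a 10x Chromium 5' kit, per the labels' protocols. The submitters' processing notes name Cell Ranger 3.1 and mm10. The deposited unit is log10: the log10 of 1 plus a gene's UMIs scaled to 10000 per cell. No header states it, and it was read from the values, which gave whole UMIs in 100% of cases (tolerance 0.02), while a natural log gave 65.7% to 68.3%. Each library kept 95.41% to 96.71% of its UMIs in the deposited genes. The filters behind the deposited tables, in which cells hold 1501 to 14995 UMIs, are not given in the sources used here.

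A cell was kept with 200 genes or more and 20% mitochondrial UMIs or less (51 of 21178 failed). Scrublet in scanpy 1.11.5 removed 663 doublets, 1.38% to 3.97% per library. Clustering used 2000 variable genes, 30 components, 15 neighbours and Leiden resolution 1 (Python 3.11.15, scikit-learn 1.9.0). Of 52 clusters, 43 were named, by a rule settled after the leading genes had been seen, and 2175 cells stayed unnamed. A name took at least 3 markers among the top 50 genes. Many keratinocyte-like clusters had fewer and were named because at least 50% of the keratinocyte markers were each detected in at least 20% of cells.

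For each class and mouse with at least 10 cells, linear means were scaled by trimmed means (30% of log ratios and 5% of levels trimmed) and fitted by limma 3.58.1 in R 4.3.3 on log2(value + 0.1) with group as the only term. Genes needed 10 UMIs and 0.1 per 10000 in 2 mice. Benjamini-Hochberg adjustment ran over all genes tested, with a threshold of 0.05. With 2 against 2 mice an exact permutation p cannot go below 0.333, so calls depend on the spread that limma shares across genes. The fit was also run on simulated data, but no outcome is given here, so this adds no weight to the calls. Shares carry Wilson 95% intervals for counting error, after thinning to 1500 UMIs. Figures used matplotlib 3.10.9.

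For AG against NO_AG and AG_CPI against AG, members whose groups do not overlap are named. Each carries a fitted difference, or a ratio of UMIs where these are few. For AG_CPI against NO_AG the called members alone are named, and overlapping members are not all listed. Of the pathway lists, called genes are named, with Ifng, Ifngr1, Ifngr2, Jak1, Jak2, Irf1 and Socs1 in any case, and the 8 genes of most alike pattern. A gene that this rule names is not reported here. Members, lists and tests were chosen with earlier results of these data known. Alternatives changed the pseudocount, filters, scaling, doublets, clustering, CD8 gate, depth, mice in the fit and naming rule.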

Additional observations from a re-analysis of the deposited data

Results flagged for a closer look

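In the contrasts below, both mice of a group lay on one side in one class and on the opposite side in another. None of these differences passed the limma test, and the difference between the classes was not tested, so opposite changes are not shown. For AG against NO_AG, Gbp3 lay lower in both AG mice in cluster 23 (log2 difference -0.63, but 0.09 after thinning) and higher in both in CD8 T cells (0.61), αβ T-like cells outside the CD8 gate (0.65) and keratinocyte-like cells (1.54).

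For AG_CPI against AG, Gbp3 lay higher in both AG_CPI mice in monocyte/macrophage-like cells (0.52) and cluster 23 (0.88, but -0.24 after thinning), and lower in both in keratinocyte-like cells (-0.80) and αβ T-like cells outside the gate (-0.34, but 0.21 with Trdc-positive cells let into the gate). Gbp5 lay higher in monocyte/macrophage-like cells (0.41) and lower in αβ T-like cells outside the gate (-0.10, but 0.00 to 0.31 in 4 settings). Gbp7 lay higher in cluster 23 (1.27) and monocyte/macrophage-like cells (0.66) and lower in keratinocyte-like cells (-0.88).

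Melanocyte-like and endothelial-like cells entered no comparison, since each group but NO_AG had a mouse with under 10 of them. In AG 1, 19 melanocyte-like cells had Gbp2 at 7.32 UMIs per 10000, above the 1.25 to 2.25 of the NO_AG mice. In the same cells Igtp stood at 4.78 (NO_AG 0.652 to 1.17), Irgm1 at 2.09 (0.675 to 0.800), Gbp7 at 1.54 (0.424 to 1.11) and Gbp3 at 1.31 (0.207 to 0.368). Gbp4, with 5 UMIs, stood at 0.856 (0.0784 to 0.175), while Irgm2 at 0.249 lay below both NO_AG mice (0.360 and 0.599) and Gbp5 had no UMI (0.0657 and 0.0456). In AG 2, 48 endothelial-like cells had Irgm1 at 0.721, above 0.428 to 0.577 in NO_AG, while Igtp (1.90) and Irgm2 (1.13) lay below both NO_AG mice and the other 5 members lay between them. The values above NO_AG come from 1 mouse each, with 5 to 59 UMIs a gene, and carry no test.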

How the results depend on the processing

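For the 64 member differences printed, 1026 alternative values were computed. Of these, 910 kept direction and side of the threshold, 64 lost a call (8 differences), 45 gained one (20) and 7 changed sign (4). The sign changes concern differences that were never called: Gbp3 in cluster 23 after thinning, for AG against NO_AG (0.09) and AG_CPI against AG (-0.24), Gbp3 in αβ T-like cells outside the CD8 gate with Trdc UMIs allowed in the gate (0.21), and Gbp5 in those cells under the ratio of sums (0.00), doublets kept (0.05), Leiden resolution 0.5 (0.08) and the first naming rule (0.31). Where no other value shows it, the cause of a change was not tested. The first naming rule and the fit without the keratinocyte clusters of AG 2 were chosen after seeing the data.

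Counts of members called were as follows, AG against NO_AG unless said. In CD8 T cells the 1 call became 0 without the low-value filter, under deposited scaling, with doublets kept, stricter cell filters, thinning and only the 2 groups in the fit, and AG_CPI against NO_AG went from 0 to 1 with Trdc UMIs allowed. In cluster 13 the 1 became 0 at pseudocount 0.02, without the filter, under stricter cell filters, Leiden resolution 0.5 and thinning, and in cluster 22 at pseudocount 0.02, without the filter, under the ratio of sums and thinning. In dendritic/Langerhans-like cells the 1 became 0 at pseudocounts 0.5 and 0.02, without the filter, under deposited scaling, the ratio of sums, doublets kept and thinning. In keratinocyte-like cells the 0 became 4 under the ratio of sums, and 2 with only the 2 groups and under the first naming rule, which gave 1 for AG_CPI against NO_AG. In the other αβ T-like cells the 2 became 1 at pseudocount 0.02, under deposited scaling and the first naming rule, 0 without the filter, under the ratio of sums, stricter cell filters, Trdc UMIs allowed and thinning, and 5 with doublets kept and Leiden resolution 0.5. For AG_CPI against NO_AG their 1 became 0 without the filter, under deposited scaling, the ratio of sums, stricter cell filters, Trdc UMIs allowed and thinning, and 3 with doublets kept and Leiden resolution 0.5. The 1 of cluster 23 became 0 without the filter and under thinning. Under the ratio of sums the count stayed at 1, but the call was that of a member other than Irgm1.

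Leaving out 1 mouse gave 0 to 1 calls in CD8 T cells, ILC2-like cells and cluster 13, 1 to 3 in cluster 22, 0 to 5 in cluster 6, 0 to 3 in dendritic/Langerhans-like cells, 0 to 2 in keratinocyte-like and other αβ T-like cells, 0 to 1 in monocyte/macrophage-like cells (AG_CPI against AG), and 0 to 1 for AG_CPI against NO_AG in keratinocyte-like cells, other αβ T-like cells and cluster 23. The lone mouse is then assumed to vary like the other groups.

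The labels do not say what a replicate number marks, and with 2 numbers a pairing of the mice could not be established. Same-numbered mice correlated in their deviations at -0.16 to 0.01 in CD8 T and 0.18 to 0.20 in keratinocyte-like cells. With the replicate block, calls became 2 in cluster 13, 4 in cluster 22, 2 in cluster 6 and 1 in keratinocyte-like and in other αβ T-like cells. Deposited scaling moved the median of all genes to between -0.12 and -0.11 in cluster 6, cluster 22 and dendritic/Langerhans-like cells. It changed higher and lower calls over all genes in the other αβ T-like cells from 155 and 88 to 129 and 114, and for AG_CPI against NO_AG from 207 and 146 to 172 and 188.

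Without thinning, the mean share of cells with a Gbp2 UMI went from 2.38%, 5.79% and 4.37% to 4.62%, 11.1% and 7.55% in CD8 T cells of NO_AG, AG and AG_CPI, and from 2.91%, 19.2% and 12.1% to 6.53%, 33.1% and 18.8% in keratinocyte-like cells. For Igtp the shares went from 5.69%, 9.81% and 8.64% to 10.9%, 17.2% and 14.2%, and from 2.35%, 9.61% and 2.84% to 6.60%, 23.7% and 8.27%. Each group had 2 mice, and some GBP genes lay near 0.1 per 10000. The part of mouse number and of depth in what was called was not tested.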
